A study of Saccharomyces cerevisiae with 44 samples.

Results

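The hypoxic and heme-repressed genes of budding yeast were followed here as 9 genes chosen by name, of 7127 features in the count table. The 9 were HEM13 and OLE1, whose enzymes use molecular oxygen, CYC7, COX5B, AAC3 and ANB1, which are low-oxygen forms of proteins with an aerobic counterpart, the repressor gene ROX1, and the cell wall mannoprotein genes TIR1 and DAN1. In air, yeast makes heme, and heme raises the level of the repressor Rox1, which binds upstream of hypoxic genes and keeps them low together with the Tup1-Cyc8 corepressor. When oxygen or heme is scarce, Rox1 disappears, the hypoxic genes are released, and the sterol-responsive activator Upc2 turns on a further set that includes the DAN and TIR cell wall genes. The heme-responsive activator Hap1 acts on both sides, since it drives aerobic genes and ROX1. The names of the genes describe this known regulation. Oxygen and heme were not varied in these samples.

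Transcripts were measured by RNA sequencing in cells arrested in G1 and then left alone or given the mating pheromone alpha-factor. The wild type (WT) was strain VM05. It is MATa and labelled with the cyclin alleles cln1, cln2 and cln3, a galactose-driven cyclin (leu2:LEU2::GAL-CLN3), bar1, and the markers ade1, his2, trp1 and ura3. The same alleles were carried by strains that also had kar4::KanMX (kar4Δ, ACY01), ste12::KanMX (ste12Δ, ACY02) or ime4::KanMX (ime4Δ, ACY13). Every sample was of mating type a, and each genotype was represented by 1 named strain. Galactose-grown cells (30 °C) were moved to glucose for 3 h, which shuts off the galactose-driven CLN3, and treated cells then received 20 µM alpha-factor for 60 min. Ste12 is the transcription factor of the pheromone response, Kar4 is its partner at mating genes, and Ime4 is an mRNA methyltransferase. In batches 1 and 2, WT, kar4Δ and ste12Δ each had 4 libraries frozen at 0 h and 4 libraries after alpha-factor. Batch 1 held the first 2 replicates of each group, numbered 1 and 2, and batch 2 those numbered 3 and 4. Batch 3 held WT and ime4Δ with 2 libraries per condition, and its titles gave no time for the untreated cells. Batch 4 held WT with 2 libraries per condition, and its untreated cells waited for 60 min like the treated ones, so it is the batch with a time-matched control. Batches 1 and 2 compared cells at the end of the arrest with cells 60 min later, so that time in glucose and alpha-factor cannot be told apart there. Nothing in the labels says that replicates came from separate cultures, and the p-values measure the spread between these libraries, which may be technical.

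Stretches upstream of 6 members are shown because they hold letters that Rox1 or Upc2 recognise or, for CYC7, the pheromone factor Ste12. Whether Ste12 acts at CYC7 was not tested. They are reference sequence (R64, sacCer3), written from 5′ to 3′ on the gene's own strand. Positions count back from the base before the start codon, which is -1. In the first 4, capitals mark ATTGTTC, the core of the Rox1 site. The HEM13 stretch (chrIV:546402-546521, plus strand) lies from -240 to -121 and holds 1 match. The OLE1 stretch (chrVII:398438-398557, plus strand) lies from -190 to -71, that of ANB1 (chrX:525582-525711, minus strand) from -330 to -201, and that of COX5B (chrIX:154942-155061, plus strand) from -280 to -161.
HEM13: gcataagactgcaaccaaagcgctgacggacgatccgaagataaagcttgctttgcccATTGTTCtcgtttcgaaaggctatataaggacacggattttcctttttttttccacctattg
OLE1: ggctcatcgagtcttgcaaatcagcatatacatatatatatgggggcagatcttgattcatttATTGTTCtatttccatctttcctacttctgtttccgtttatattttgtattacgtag
ANB1: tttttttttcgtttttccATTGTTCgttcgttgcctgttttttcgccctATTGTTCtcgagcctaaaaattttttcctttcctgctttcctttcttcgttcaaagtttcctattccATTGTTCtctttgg
COX5B: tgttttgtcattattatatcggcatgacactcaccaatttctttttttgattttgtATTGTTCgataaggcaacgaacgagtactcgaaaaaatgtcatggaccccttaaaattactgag
The ANB1 stretch holds 3 matches, at -312, -281 and -214. The OLE1 match starts at -127 and the COX5B match at -224. In the stretch of CYC7 (chrV:80058-80177, minus strand, -200 to -81), capitals mark TGAAACA, the pheromone response element bound by Ste12, from -101 to -95. In that of DAN1 (chrX:709848-709967, minus strand, -260 to -141), capitals mark TATACGA, which is TCGTATA on the other strand and is the core of the Upc2 site.
CYC7: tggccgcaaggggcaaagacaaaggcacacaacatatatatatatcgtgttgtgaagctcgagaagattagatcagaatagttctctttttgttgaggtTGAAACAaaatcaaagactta
DAN1: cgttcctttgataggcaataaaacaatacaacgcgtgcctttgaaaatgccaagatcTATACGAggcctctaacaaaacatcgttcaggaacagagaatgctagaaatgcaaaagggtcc
Over the 600 bases before each start codon, on both strands, ATTGTTC was present for 5 of the 9 members (TIR1 is the fifth, at -584) and for 13.9% of 6005 promoters. TCGTATA was present for 3 members (CYC7, TIR1 and DAN1) and for 8.58% of promoters. TGAAACA was present for 1 member, CYC7, and for 14.6% of promoters. The Hap1 pattern (CGG, 3 bases of any kind, TA, 1 base of any kind, CGG) was present for 1 member, OLE1, from -566 to -555, and for 0.533% of promoters. The windows of AAC3 and ROX1 held no match to these 4 patterns. A match is a description of letters, not a measured site, and no binding was measured in these libraries.

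The libraries held between 4248572 and 22586646 counts, the fewest of them in a library of batch 1. Levels are given as CPM, counts relative to library size after TMM scaling (a trimmed mean of log ratios between libraries) over all 36 libraries, and as CPM per kb of coding length where genes are compared with each other. KAR4 stood at 0.00461 to 0.278 CPM in kar4Δ, STE12 at 0.246 to 6.33 CPM in ste12Δ and IME4 at 0.344 to 0.539 CPM in ime4Δ, each below every WT library of its batches and condition. Although the labels list cln1, cln2 and cln3, the 3 genes carried reads in every library. CLN1 was at 64.2 to 244 CPM, CLN2 at 118 to 290 CPM and CLN3 at 46.1 to 135 CPM. BAR1 was at 0 to 0.265 CPM, as the bar1 label has it. The summed level of 5 a-cell markers was 3123 to 4958 CPM in WT at 0 h and 497 to 834 CPM in ste12Δ, and that of 4 alpha-cell markers was 3258 to 3592 CPM in kar4Δ after alpha-factor against 171 to 255 CPM in WT. In that alpha-cell list the receptor gene STE3 rose in kar4Δ by 4.61 on the log2 scale (edgeR, adjusted p 4.83e-12). It went from 0.461 to 0.671 CPM at 0 h to 10.4 to 16.4 CPM after alpha-factor. MF(ALPHA)1 of the same list fell there by 1.57 (edgeR, adjusted p 2.69e-07), while MF(ALPHA)2 and SAG1 rose by 2.82 and 2.68. The summed level was mostly that of SAG1, with a mean of 3137 CPM in kar4Δ after alpha-factor. The part of these shifts in the results below was not tested. WT replicate 1 at 0 h, the library with the fewest counts, was the lowest of its group for AAC3, ANB1, CYC7, COX5B, ROX1 and TIR1 and the highest for CYC1. Values without it are given for some results of the members, counterparts and lists, and it moves others that are not printed.

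At 0 h in WT the 9 genes spanned more than 3 orders of magnitude. Per kb of coding length, OLE1 stood highest at 949 ± 262 CPM per kb, followed by HEM13 at 397 ± 130 and ROX1 at 151 ± 34.1 (SD, n = 4). CYC7 followed at 43.2 ± 23.3 CPM per kb, COX5B at 20.2 ± 7.0, ANB1 at 13.5 ± 10.3 and TIR1 at 7.42 ± 1.69. AAC3 stood at 2.24 ± 1.63 CPM per kb and DAN1 at 0.252 ± 0.232, which was 0 to 3 counts per library. The libraries of OLE1, HEM13, ROX1 and CYC7 did not overlap with those of the next gene in this order, except that CYC7 overlapped with COX5B. COX5B, ANB1 and TIR1 also overlapped with their neighbours in the order, as did AAC3 with DAN1, but TIR1 and AAC3 did not. No 50-base window of the coding sequences, the length of a read, recurred elsewhere in the genome, except for TIR1. There 93 of 716 windows (13.0%) recurred, so its counts are uncertain.

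**Figure D1:**
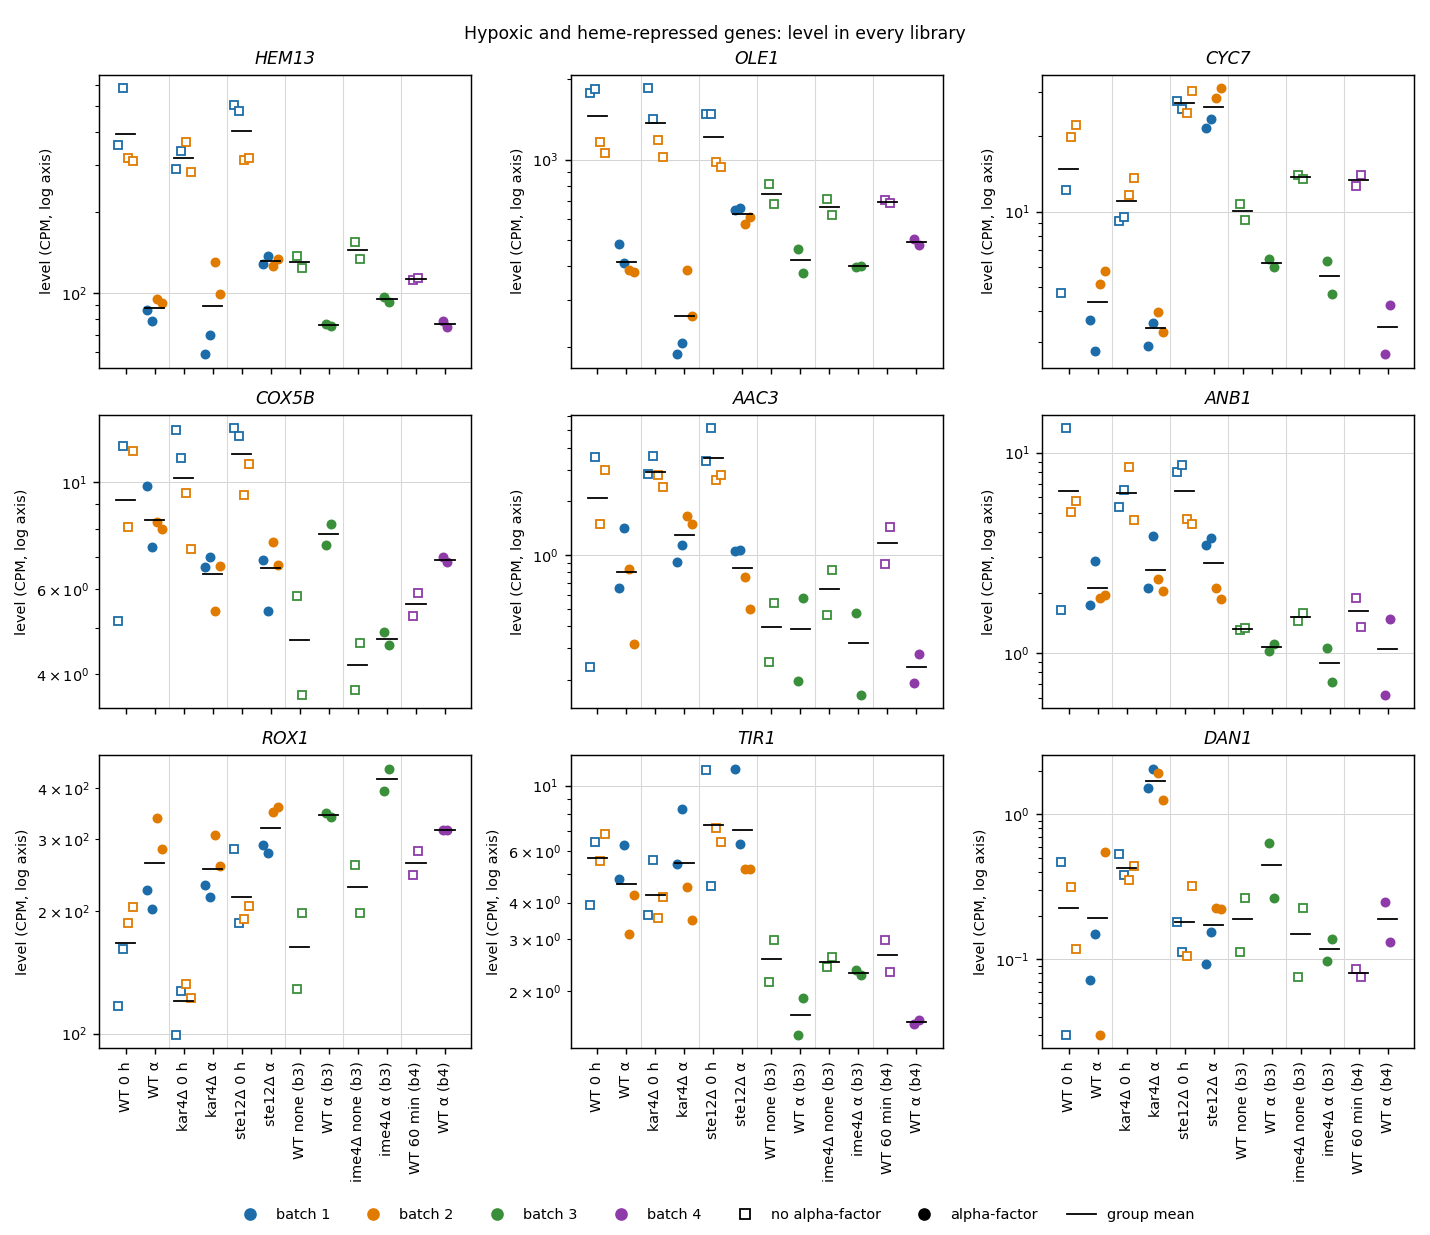
Level of each gene in each of the 36 libraries, in CPM on a log axis (scales differ between panels). Open squares are untreated libraries, filled circles are libraries with alpha-factor, colours are batches, black lines are group means, and 2 DAN1 values of 0 are drawn at 0.03 CPM. HEM13 and OLE1 fell after alpha-factor in every strain, and CYC7 fell in every strain but ste12Δ, where its libraries stayed between 21.6 and 31.3 CPM.

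The first comparison was the response of WT to alpha-factor in batches 1 and 2. HEM13, OLE1, CYC7, ANB1 and AAC3 fell and ROX1 rose, while COX5B, TIR1 and DAN1 did not pass the test. A gene is called changed where the p-value of edgeR's quasi-likelihood test, adjusted by Benjamini-Hochberg over all features tested, was under 0.05. Of the 9 members 5 were called lower and 1 higher, where 30% of all 6161 features were called lower, 29% higher and 59% either way. Treated and untreated libraries were fully apart for 2 members, HEM13 and OLE1, and for 44.6% of all features. The median log2 fold change was -1.44 over the 9 members and close to 0 over all features. Scaling by library totals alone gave a median of -0.17 over all features, with 19.2% called higher and 41% lower, and it left these 6 calls in place. Throughout, fewer cells expressing a gene and less of its RNA per cell cannot be told apart.

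HEM13 (YDR044W, chromosome IV, 546642 to 547628) encodes coproporphyrinogen oxidase, a step of heme synthesis that consumes oxygen. In WT at 0 h it stood at 357, 583, 319 and 310.0 CPM in replicates 1 to 4, and after alpha-factor at 86.4, 78.4, 95.0 and 91.6 CPM. All treated libraries lay far below all untreated ones. It fell by 2.15 on the log2 scale (SE 0.22, adjusted p 1.16e-08), which is 4.43-fold, and by 2.52 and 1.75 in batches 1 and 2 alone. In kar4Δ it went from 291, 339.9, 365 and 284 CPM to 59.0, 69.7, 131 and 98.8 CPM, and fell by 1.83 (SE 0.21, adjusted p 7.03e-08). In ste12Δ it went from 503, 476, 314 and 319 CPM to 128, 137, 126 and 134 CPM, and fell by 1.61 (SE 0.21, adjusted p 4.74e-06). HEM13 thus fell in all 3 strains, without overlap in any of them.

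OLE1 (YGL055W, chromosome VII, 398628 to 400160) encodes the fatty acid desaturase, which uses oxygen to make the unsaturated fatty acids of membranes. It was the most abundant member, at 1768, 1831, 1159 and 1060.4 CPM in WT at 0 h and at 487, 410.2, 386 and 382 CPM after alpha-factor. It fell by 1.78 (SE 0.20, adjusted p 8e-08, 3.44-fold), and by 2.01 and 1.53 in the batches alone. In kar4Δ the level went from 1850.5, 1412, 1187 and 1019 CPM to 188, 208, 387 and 262 CPM, a fall by 2.33 (SE 0.21, adjusted p 7.76e-10, 5.03-fold). In ste12Δ it went from 1481, 1475, 979 and 940.2 CPM to 649, 658, 578 and 614 CPM. The ste12Δ libraries fell by 0.94 (SE 0.20, adjusted p 0.00101, 1.92-fold) and stayed above every treated library of WT.

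CYC7 (YEL039C, chromosome V, 79636 to 79977) encodes the low-oxygen form of cytochrome c, the electron carrier before cytochrome oxidase. In WT it stood at 4.70, 12.2, 19.9 and 22.3 CPM at 0 h and at 3.69, 2.75, 5.13 and 5.76 CPM after alpha-factor. Replicate 1 at 0 h, with 20 counts, lay within the range of the treated libraries, and the other 3 lay above it. CYC7 fell by 1.82 (SE 0.23, adjusted p 5.24e-07) and by 2.01 without that replicate. In kar4Δ it went from 9.14, 9.47, 11.7 and 13.7 CPM to 2.90, 3.56, 3.95 and 3.29 CPM, and fell by 1.69 (SE 0.25, adjusted p 2.68e-06). In ste12Δ it stood at 27.7, 25.9, 24.9 and 30.4 CPM at 0 h and at 21.6, 23.4, 28.6 and 31.3 CPM after alpha-factor, which overlapped. Its log2 fold change there was -0.07 (SE 0.16, adjusted p 0.75), and 0.11 in batch 2 alone.

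AAC3 (YBR085W, chromosome II, 415983 to 416906) encodes the ADP/ATP carrier of the mitochondrial inner membrane that is used without oxygen. Its counts were low, at 0.235, 3.56, 1.49 and 3.00 CPM in WT at 0 h and 0.651, 1.42, 0.837 and 0.317 CPM after alpha-factor, and the groups overlapped. The value of WT replicate 1 at 0 h came from 1 count. AAC3 fell by 1.44 (SE 0.45, adjusted p 0.0083), but not past the test in batch 1 alone (-0.89, adjusted p 0.355) or without WT replicate 4 at 0 h (-1.09, adjusted p 0.0634). Without replicate 1 at 0 h the value was -1.72. In kar4Δ AAC3 fell by 1.17 (SE 0.37, adjusted p 0.00836), from 2.41 to 3.59 CPM at 0 h to 0.907 to 1.65 CPM, with -0.76 and no call in batch 2 alone (adjusted p 0.111). In ste12Δ it fell by 1.97 (SE 0.34, adjusted p 0.000133), from 2.63 to 5.13 CPM to 0.50 to 1.07 CPM. It reached the minimum for testing (1.05 CPM) in every library of the kar4Δ and ste12Δ groups at 0 h, and in no other group throughout.

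COX5B (YIL111W, chromosome IX, 155222 to 155765, with 2 coding exons) encodes the low-oxygen form of subunit 5 of cytochrome oxidase. In WT the levels overlapped, at 5.17, 11.9, 8.09 and 11.6 CPM and then 9.81, 7.33, 8.27 and 8.0 CPM, with a log2 fold change of -0.22 (SE 0.19, adjusted p 0.354) and of -0.38 without replicate 1 at 0 h (adjusted p 0.0597). It fell in kar4Δ by 0.64 (SE 0.19, adjusted p 0.00574), from 7.29 to 12.8 CPM to 5.41 to 7.01 CPM, and in ste12Δ by 0.78 (SE 0.17, adjusted p 0.00136), from 9.39 to 12.9 CPM to 5.41 to 7.52 CPM. Both calls were lost in batch 2 alone, at -0.44 (adjusted p 0.114) in kar4Δ and -0.50 (adjusted p 0.0735) in ste12Δ. Neither difference from the WT response passed the test, and the value for ste12Δ is given below.

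ANB1 (YJR047C, chromosome X, 524908 to 525381) encodes the low-oxygen form of the translation factor eIF5A and is a standard Rox1 target. In WT it went from 1.65, 13.2, 5.04 and 5.76 CPM to 1.73, 2.86, 1.88 and 1.94 CPM. The 3 untreated libraries other than replicate 1 lay above all treated ones, and replicate 1, with 7 counts, lay below them all. ANB1 fell by 1.61 (SE 0.38, adjusted p 0.000795), and by 1.88 without replicate 1 at 0 h. It fell by 1.29 in kar4Δ (SE 0.35, adjusted p 0.00267) and by 1.17 in ste12Δ (SE 0.30, adjusted p 0.00528). In kar4Δ the libraries lay at 4.63 to 8.5 CPM before and 2.04 to 3.85 CPM after alpha-factor. Those of ste12Δ lay at 4.41 to 8.68 CPM and then 1.87 to 3.77 CPM. In batch 1 alone neither deletion strain passed the test, at -1.02 (adjusted p 0.155) in kar4Δ and -1.21 (adjusted p 0.0778) in ste12Δ.

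ROX1 (YPR065W, chromosome XVI, 679693 to 680799), the gene of the repressor itself, moved the opposite way. It stood at 117, 162, 187 and 204 CPM in WT at 0 h and at 225, 202, 339 and 284 CPM after alpha-factor. It rose by 0.64 on the log2 scale (SE 0.14, adjusted p 0.000496, 1.56-fold), and by 0.54 without replicate 1 at 0 h, with a slight overlap between replicate 4 at 0 h and replicate 2 after alpha-factor. In kar4Δ it rose by 1.06 (SE 0.14, adjusted p 6.82e-07, 2.09-fold), from 99.2, 127, 132 and 122 CPM to 232, 216, 307 and 258 CPM, without overlap. In ste12Δ it rose by 0.53 (SE 0.14, adjusted p 0.00607), from 283, 187, 191 and 205 CPM to 289.5, 277, 349.9 and 359.6 CPM. Replicate 1 of ste12Δ at 0 h lay apart from its group, and in batch 1 alone that rise was 0.26 and not called (adjusted p 0.325).

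TIR1 and DAN1 encode serine-rich mannoproteins that enter the cell wall in anaerobic growth. TIR1 (YER011W, chromosome V, 175248 to 176012) overlapped between conditions in all 3 strains and was called in none. Its log2 fold change was 0.30 in kar4Δ, -0.10 in ste12Δ and -0.42 in WT. In WT its batches differed, at 0.06 in batch 1 (adjusted p 0.937) and -0.77 in batch 2, where it was called lower (adjusted p 0.00885), and without replicate 1 at 0 h the value was -0.57 (adjusted p 0.107). DAN1 (YJR150C, chromosome X, 708811 to 709707) was close to undetected, with 0 to 4 counts in each WT library and 1.07 to 4.11 in each ste12Δ library. In kar4Δ it had 0.532, 0.383, 0.354 and 0.442 CPM at 0 h and 1.51, 2.07, 1.94 and 1.25 CPM after alpha-factor, the latter from 10 to 14.55 counts. Those 4 libraries were the only ones of 24 above the minimum for testing. DAN1 thus entered the test through the group where it is high, so its level there is a description and its call supports nothing.

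Besides DAN1, 7 members were called in kar4Δ, 6 lower and 1 higher, where 65.9% of all features were called, 32.8% lower and 33% higher (47.7% and 21.6% under library totals alone). The same 7 were fully apart between conditions, as were 53.2% of features. In ste12Δ 6 members were called, 5 lower and 1 higher, where 32.2% of features were called, 14.6% lower and 17.6% higher, and 5 members (22.6% of features) were fully apart. The median over the members was -1.17 in kar4Δ and -0.78 in ste12Δ. Over all features both medians were close to 0. The responses of the 3 strains are set side by side in the plot of log2 fold changes by strain and batch.

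**Figure D2:**
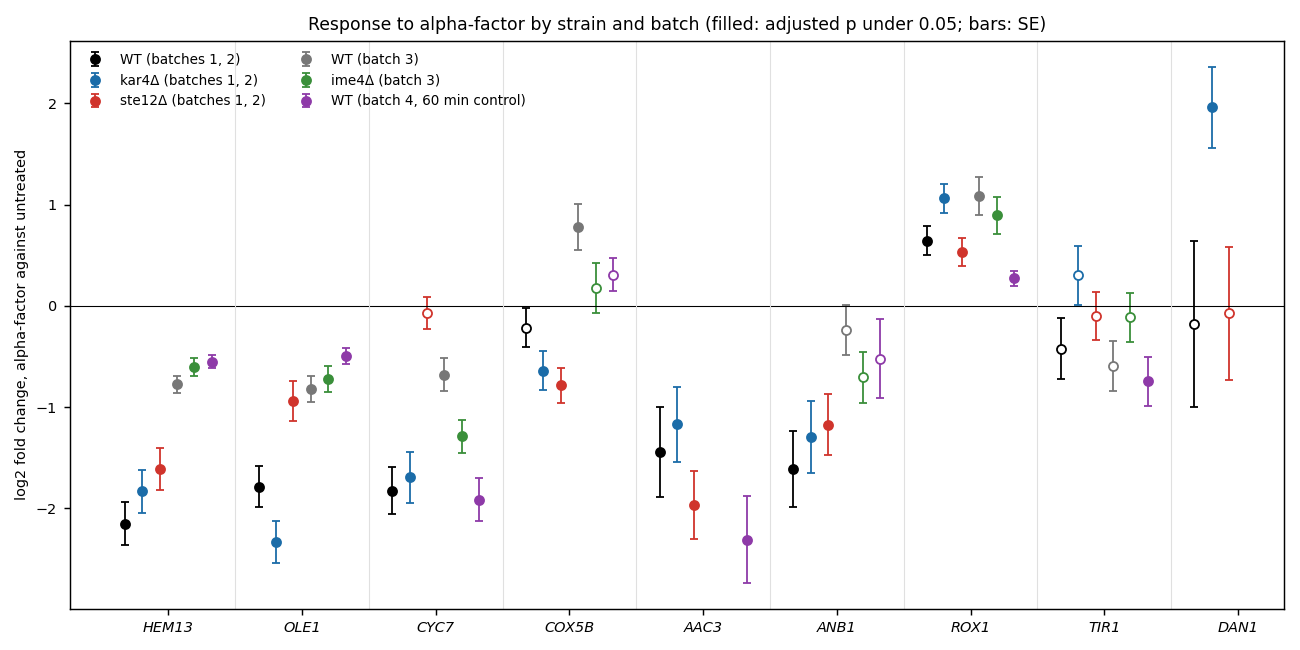
Log2 fold change of alpha-factor against untreated libraries for each gene in each strain and batch, with bars of 1 SE. Filled points were called at an adjusted p under 0.05, and genes below the minimum count of a fit have no point. HEM13 and OLE1 fell in all 6 comparisons, by 2.15 and 1.78 in WT of batches 1 and 2 and by 0.55 and 0.50 in WT of batch 4, and ROX1 rose in all 6.

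The next question was whether the response differed without STE12, tested as the response of ste12Δ minus that of WT. This difference and the one for KAR4 share the WT libraries. CYC7 and OLE1 differed, 2 of 9 members, both called with library totals too, where 35.9% of all features did, 18.3% higher and 17.6% lower (27.8% and 10.8% under library totals). The CYC7 response was 1.75 higher in ste12Δ (SE 0.28, adjusted p 4.11e-05), with a fall in WT and no call in ste12Δ. This difference was 2.08 in batch 2 and 1.24 in batch 1 alone, where it missed the threshold (adjusted p 0.0513), and 1.94 without WT replicate 1 at 0 h. The OLE1 response was 0.84 higher (SE 0.28, adjusted p 0.0205), with 0.82 and 0.84 in the batches alone, and was not called without the batch term (adjusted p 0.0517). HEM13 had a difference of 0.54 (SE 0.29, adjusted p 0.155), called in batch 2 alone (0.48, adjusted p 0.0496) and between 0.28 and 0.65 with 1 library left out. AAC3 had -0.53 (SE 0.60, adjusted p 0.528), between -0.89 and -0.15 with 1 left out and -0.25 without WT replicate 1 at 0 h. COX5B had -0.57 (SE 0.26, adjusted p 0.0906), which was called without WT replicate 4 at 0 h (-0.75, adjusted p 0.0282).

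Levels were then compared between ste12Δ and WT in the same condition. At 0 h, 2 members were called, both higher in ste12Δ, where 22.5% of all features were called, 10.6% upward and 11.9% downward. Scaled by library totals alone, 4 members and 38.4% of features were called upward and 4.8% of features downward. CYC7 was 0.85 higher (SE 0.17, adjusted p 0.00122), and all 4 ste12Δ libraries lay above all 4 WT libraries, as 1 member and 17.6% of features did in either direction. Batch 1 alone gave 1.58, and batch 2 alone gave 0.37 (adjusted p 0.0551). Without WT replicate 1 it was 0.65 and still called. ROX1 was 0.40 higher (SE 0.14, adjusted p 0.0471), 0.74 in batch 1 and 0.01 in batch 2. This call was lost when any of 5 libraries was left out, WT replicates 1, 2 and 3 or ste12Δ replicates 1 and 2. It was also lost with open reading frames only (adjusted p 0.0505), without the batch term (adjusted p 0.179) and with only the groups of the comparison (0.37, adjusted p 0.159). After alpha-factor, CYC7 was 2.60 higher in ste12Δ (SE 0.22, adjusted p 4.78e-10, 6.06-fold), with 2.82 and 2.45 in the batches alone. OLE1 was 0.59 higher (SE 0.20, adjusted p 0.0133) and HEM13 0.58 higher (SE 0.21, adjusted p 0.022), and the 3 genes showed no overlap between strains, as did 43.7% of features. In all 3 members were called higher, where 59.1% of features were called, 30.9% upward and 28.2% downward. Scaled by library totals alone, 5 members and 59.2% of features were called upward and 12.6% of features downward. The HEM13 call was lost without WT replicates 1 or 2 or ste12Δ replicate 4 after alpha-factor.

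For KAR4, the response difference against WT was called for none of the 9 members, where 18.9% of all features were called, 8.72% higher and 10.2% lower. At an unadjusted p under 0.05 there were 2, and DESeq2 called 0. OLE1 had a difference of -0.55 (SE 0.28, adjusted p 0.19), with -1.03 and a call in batch 1 alone (adjusted p 0.00432) and -0.23 in batch 2 (adjusted p 0.52). It was also called without kar4Δ replicate 3 after alpha-factor (-0.85, adjusted p 0.00735). DAN1 had a difference of 2.14 (SE 0.97, adjusted p 0.133), limited by few WT counts, and 3.81 without WT replicate 4 after alpha-factor (adjusted p 0.0138). At 0 h, ROX1 was 0.47 lower in kar4Δ (SE 0.14, adjusted p 0.0362), the 1 call among the members, where 12% of features were called, 5.84% higher and 6.12% lower. No member was without overlap between the strains at 0 h, where 11% of features were. That ROX1 call was lost without any 1 of 6 libraries, WT replicates 2, 3 and 4 and kar4Δ replicates 1, 3 and 4, and in batch 1 alone (-0.30, adjusted p 0.327). It was also lost with library totals alone (-0.46, adjusted p 0.0539), where 3.13% of features were called higher and 3.42% lower, and without the batch term (adjusted p 0.146). After alpha-factor 1 member besides DAN1 was called, where 37.9% of features were, 16.8% higher and 21.1% lower (11.4% and 24.3% under library totals alone). COX5B was without overlap, as were 28.8% of features. DAN1, which had passed the minimum through these kar4Δ libraries alone, held 10 to 14.55 counts per library there and 0 to 4 in WT. OLE1 was 0.63 lower in kar4Δ (SE 0.20, adjusted p 0.0152), with 188 and 208 CPM in replicates 1 and 2, below all WT libraries, and 387 and 262 CPM in replicates 3 and 4. Without kar4Δ replicate 1 it was -0.44 (adjusted p 0.082), without replicate 2 -0.47 (adjusted p 0.0763), and in batch 2 alone -0.24 (adjusted p 0.218).

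Batch 3 asked the same of IME4. In WT of this batch, 7 members were tested and 5 called, 3 lower and 2 higher, where 55.1% of features were called, 27.4% higher and 27.7% lower (18.3% and 35.9% under library totals alone). All 7 were without overlap, as were 77.5% of features with 2 libraries a side. HEM13 went from 138 and 124 CPM to 76.5 and 75.5 CPM, a fall by 0.77 (SE 0.09, adjusted p 8.41e-05). OLE1 went from 809 and 681 CPM to 463 and 379 CPM, a fall by 0.82 (SE 0.13, adjusted p 0.000604). CYC7 fell by 0.68 (SE 0.16, adjusted p 0.0068), from 10.7 and 9.28 CPM to 6.45 and 6.0 CPM, but not past the test without treated replicate 2 (-0.62, adjusted p 0.0595). ROX1 rose by 1.08 (SE 0.19, adjusted p 0.0011), from 129 and 197 CPM to 348 and 341 CPM. COX5B rose by 0.78 (SE 0.23, adjusted p 0.0159), from 5.82 and 3.63 CPM to 7.41 and 8.21 CPM. That call was lost without untreated replicate 2 (0.44, adjusted p 0.13), without treated replicate 2 (0.69, adjusted p 0.0959) and with library totals alone (0.62, adjusted p 0.0523).

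In ime4Δ, 4 of 7 members were called, 3 lower and 1 higher, where 55.5% of features were, 27.6% higher and 27.9% lower (15.4% and 47.6% under library totals alone), and 6 were without overlap (80.8% of features). HEM13 went from 156 and 134 CPM to 96.9 and 92.3 CPM and fell by 0.60 (SE 0.08, adjusted p 0.000298). OLE1 fell by 0.72 (SE 0.13, adjusted p 0.0011), CYC7 by 1.29 (SE 0.16, adjusted p 0.000159), from 14.0 and 13.5 CPM to 6.36 and 4.67 CPM, and ROX1 rose by 0.89 (SE 0.19, adjusted p 0.0029). The response of ime4Δ was not called different from that of WT for any of the 7 members, where 0.0162% of features were (1 at an unadjusted p under 0.05 and 0 with DESeq2). Its largest values among the members were those of CYC7 (-0.61, SE 0.23, adjusted p 0.615) and COX5B (-0.60, SE 0.33, adjusted p 0.623). Between ime4Δ and WT in the same condition none was called either, untreated (0.0325% of features; 2 members at an unadjusted p under 0.05, 0 with DESeq2) or after alpha-factor (0.227% of features; 2 and 0). Without overlap were 3 members untreated, where 36.6% of features were, and 4 after alpha-factor, where 55% were. AAC3 and DAN1 fell below the minimum of 0.8321 CPM in this batch.

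In batch 4, with its time-matched control, HEM13 and OLE1 fell less than in batches 1 and 2. HEM13 went from 112 and 114 CPM to 78.7 and 74.9 CPM, a fall by 0.55 (SE 0.06, adjusted p 0.00015, 1.46-fold). OLE1 went from 708 and 687 CPM to 505 and 479.6 CPM, a fall by 0.50 (SE 0.08, adjusted p 0.00085, 1.41-fold). In both genes the untreated cells that had waited for 60 min stood far below the 0 h cells of batches 1 and 2, where HEM13 was at 310.0 to 583 CPM and OLE1 at 1060.4 to 1831 CPM. The untreated WT libraries of batch 3, with no time in their titles, were at 124 and 138 CPM for HEM13. The treatment protocol describes a 0 h control only. In WT of batch 3 HEM13 fell by 0.77 and OLE1 by 0.82. The treated cells of batch 4 and of batches 1 and 2 were at like levels. In batches 1 and 2 HEM13 was at 78.4 to 95.0 CPM and OLE1 at 382 to 487 CPM after alpha-factor. The levels of different batches also differ by whatever else set the batches apart. CYC7 went from 12.6 and 14.1 CPM to 2.67 and 4.24 CPM, a fall by 1.91 (SE 0.21, adjusted p 0.000125). Its fall against the 0 h control of batches 1 and 2 was close, at 1.82, and its fall in WT of batch 3 was 0.68.

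Of the 9 members 8 were tested in batch 4, and besides AAC3 4 were called lower and 1 higher, where 57.8% of features were called, 28.9% each way (22.1% higher and 37.8% lower with library totals alone). Of the 8, 7 were without overlap, as were 78.7% of features. AAC3 went from 0.895 and 1.43 CPM to 0.192 and 0.278 CPM. It passed the minimum of 0.499 CPM only through the untreated libraries, where it is high, so its call supports nothing. ROX1 rose by 0.27 (SE 0.08, adjusted p 0.0147), from 245 and 281 CPM to 316 in both, and the call was lost without either treated library and with library totals alone (0.15, adjusted p 0.109). TIR1 fell by 0.75 (SE 0.25, adjusted p 0.0307), from 2.98 and 2.32 CPM to 1.55 and 1.60 CPM. Its call was lost with DESeq2 (adjusted p 0.108), with no filter on low counts (adjusted p 0.0554) and without untreated replicate 1, treated replicate 1 or treated replicate 2. COX5B and ANB1 were not called, at 0.31 (SE 0.17, adjusted p 0.146) and -0.52 (SE 0.39, adjusted p 0.283).

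The difference between the WT responses was tested in a fit of all 36 libraries. The response of batch 4 minus that of batches 1 and 2 was called for 2 members, where 16.5% of features were called. It was 1.59 for HEM13 (SE 0.32, adjusted p 0.00099) and 1.28 for OLE1 (SE 0.31, adjusted p 0.0049), so both fell less in batch 4. For CYC7 it was -0.09 (SE 0.35, adjusted p 0.901). The same difference for batch 3, a comparison added after its values had been seen, was called for HEM13 alone (1.37, SE 0.33, adjusted p 0.0248), where 1.82% of features were. It was lost without any 1 of 6 libraries, WT replicate 2 at 0 h, WT replicate 2 after alpha-factor and the 4 WT libraries of batch 3, and DESeq2 called 3 members. OLE1 stood at 0.96 there (SE 0.31, adjusted p 0.112), and 4 members had an unadjusted p under 0.05 (edgeR). Between batches 4 and 3, also added later, no member was called (2.46% of features; 3 members at an unadjusted p under 0.05, 1 with DESeq2), with 0.22 for HEM13 (SE 0.37, adjusted p 0.815) and 0.32 for OLE1 (SE 0.36, adjusted p 0.699). Control time and batch cannot be told apart in these differences.

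**Figure D3:**
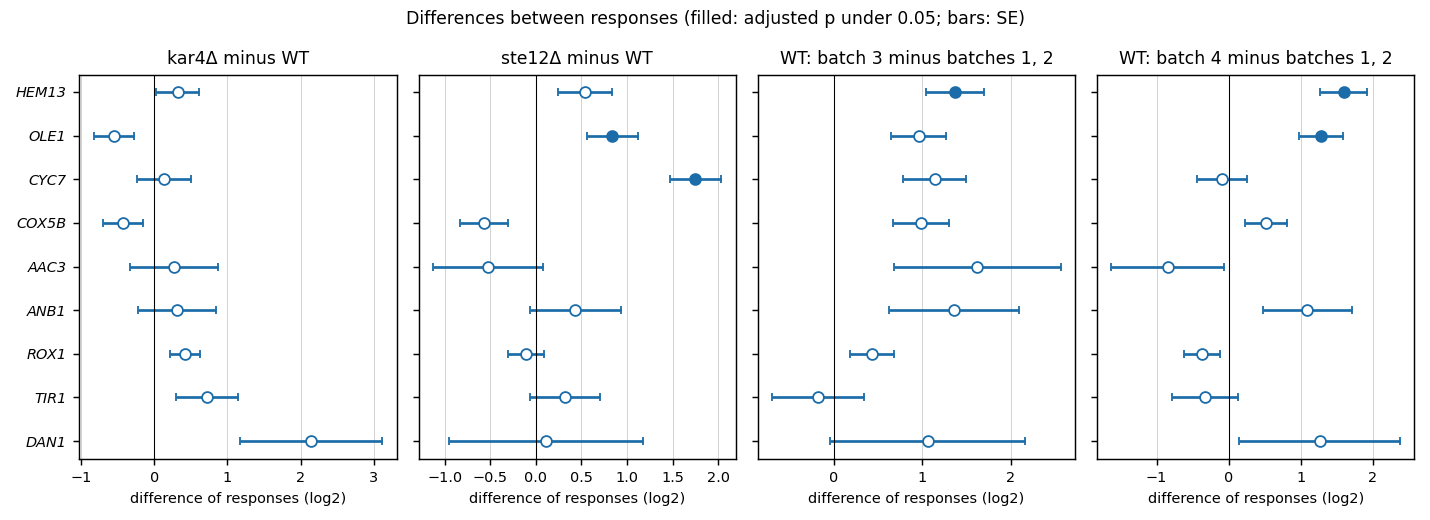
Difference between responses for each gene on the log2 scale, with bars of 1 SE and filled points where the adjusted p was under 0.05 (horizontal scales differ). CYC7 (1.75) and OLE1 (0.84) stand out for ste12Δ minus WT, and HEM13 (1.59) and OLE1 (1.28) for WT of batch 4 minus batches 1 and 2. The wide bars of DAN1 and AAC3 go with their low counts.

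For 4 of the members yeast has a counterpart that it uses in air, and the mean level of each counterpart lay above that of its low-oxygen form in every group. Coding sequences of the pairs were 90.9% identical for ANB1 and HYP2, 79.1% for AAC3 and PET9, 77.0% for CYC7 and CYC1 and 67.5% for COX5B and COX5A. Per kb of coding length in WT at 0 h, HYP2 stood at 1226 ± 158 CPM per kb and ANB1 at 13.5 ± 10.3 (SD, n = 4). PET9 stood at 320 ± 68.3 CPM per kb and AAC3 at 2.24 ± 1.63. CYC1 stood at 467 ± 179 CPM per kb and CYC7 at 43.2 ± 23.3, and COX5A at 99.3 ± 11.9 with COX5B at 20.2 ± 7.0. In WT none of the 4 counterparts was called in batches 1 and 2, with log2 fold changes from -0.06 for HYP2 to 0.46 for CYC1 (SE 0.24, adjusted p 0.106), where 59% of all features were called. Without replicate 1 at 0 h CYC1 was called higher (0.82, SE 0.21, adjusted p 0.00246). CYC1 was the counterpart with the widest spread at 0 h, 87.9 to 230.2 CPM, and its highest value was that of replicate 1. ANB1 and CYC1 lie next to each other on chromosome X, transcribed away from each other, with 953 bases between their coding sequences.

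In ste12Δ, 3 of the 4 counterparts rose. CYC1 rose by 0.91 (SE 0.24, adjusted p 0.00545) and PET9 by 0.45 (SE 0.12, adjusted p 0.00601). COX5A rose by 0.39 (SE 0.11, adjusted p 0.00656). Of their low-oxygen forms, AAC3 and COX5B fell, and CYC7 was not called (-0.07, edgeR, adjusted p 0.75). ANB1 fell by 1.17, and its counterpart HYP2 was not called (-0.06, edgeR, adjusted p 0.692). Over all features 17.6% were called higher and 14.6% lower. The difference from the WT response was called for PET9 (0.46, SE 0.17, adjusted p 0.0374), with library totals alone also for COX5A (0.50, adjusted p 0.0125), and for no counterpart without WT replicate 1 at 0 h (PET9 0.28, adjusted p 0.109). In kar4Δ HYP2 fell by 0.36 (SE 0.12, adjusted p 0.00936). In batch 4, CYC1 fell by 0.36 (SE 0.06, adjusted p 0.00088) and COX5A by 0.57 (SE 0.08, adjusted p 0.00048). COX5A also fell in batch 3, by 0.23 in WT (SE 0.08, adjusted p 0.0399) and by 0.52 in ime4Δ (SE 0.08, adjusted p 0.000618). With library totals alone all 4 counterparts were called lower in WT of batch 3, in ime4Δ and in batch 4. Their medians were -0.37, -0.45 and -0.43, against -0.20, -0.18 and -0.30 with TMM. Over all features that scaling called 35.9%, 47.6% and 37.8% lower, with medians of -0.15, -0.29 and -0.13.

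**Figure D4:**
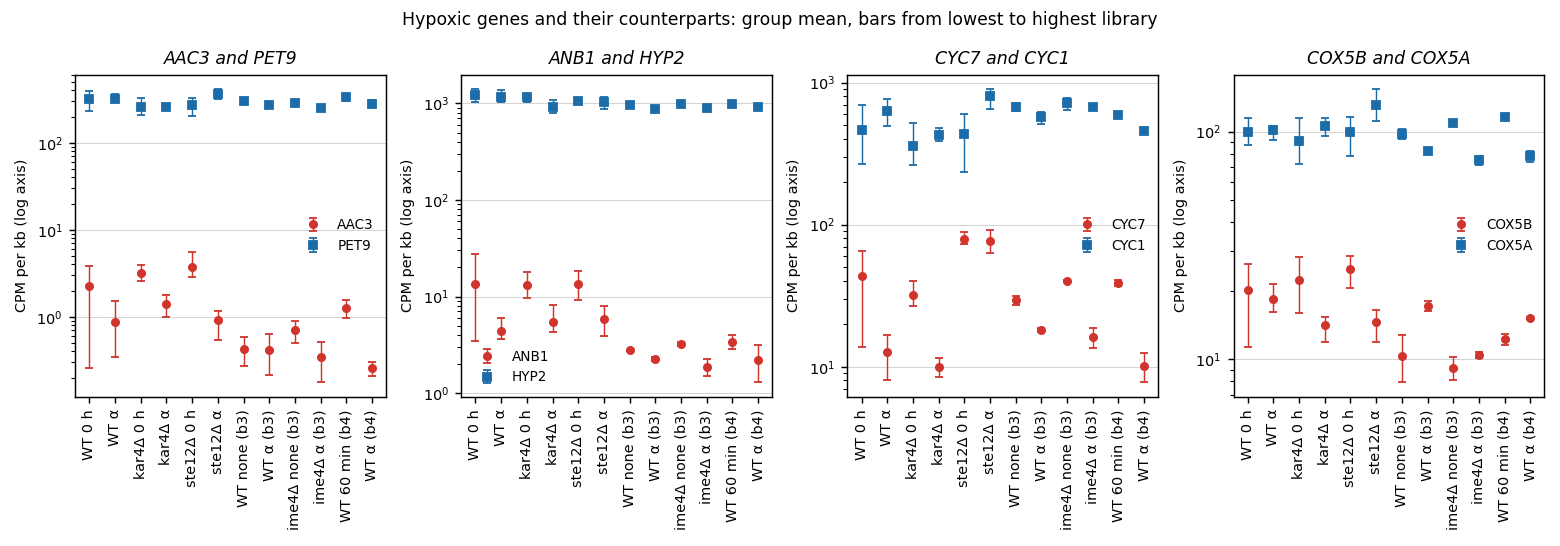
Level per kb of coding length of each low-oxygen gene (red) and its counterpart (blue) in each group, on a log axis, as the mean with a bar from the lowest to the highest library. In WT at 0 h the means were 2.24 and 320 CPM per kb for AAC3 and PET9, and 13.5 and 1226 for ANB1 and HYP2. CYC7 came closest to its counterpart in ste12Δ at 0 h, at 79.6 against 438 CPM per kb.

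Other genes of oxygen, heme and sterol regulation were counted in lists drawn up by known function with earlier results of these data known. Over all features 29% were called higher and 30% lower in WT, 33% and 32.8% in kar4Δ, and 17.6% and 14.6% in ste12Δ, and the counts below stand beside those shares. Of 14 regulators, 3 rose and 4 fell in WT, 3 and 4 in kar4Δ, and 3 and 6 in ste12Δ. MGA2, whose product activates OLE1, fell by 1.43 in WT, 1.38 in kar4Δ and 0.74 in ste12Δ, and the difference of ste12Δ from WT was 0.69 (adjusted p 0.00275). UPC2, the sterol-responsive activator, fell by 0.86, 1.04 and 0.68. MOT3, which represses hypoxic genes with Rox1, rose by 0.75, 0.78 and 0.60, and HAP1 fell most in ste12Δ, by 0.89. IXR1, an HMG-box regulator of the hypoxic response, rose by 0.92 in kar4Δ. Of the 7 other heme synthesis genes, 4 fell and 0 rose in WT, 5 fell and 1 rose in kar4Δ, and 2 fell in ste12Δ. HEM12 fell by 0.71 in WT and 0.81 in kar4Δ, and HEM3 by 0.67, 0.75 and 0.36 in the 3 strains. HEM1, the first step of the pathway, fell by 0.41, 0.56 and 0.20. With library totals alone, 2 regulators rose and 9 fell in WT and 2 and 8 in kar4Δ, and 6 heme synthesis genes fell in WT and 5 in kar4Δ with none higher, while the ste12Δ counts stood as given. Over all features that scaling called 19.2% higher and 41% lower in WT and 21.6% and 47.7% in kar4Δ.

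Of 6 further anaerobic mannoprotein genes, 2 rose and 3 fell in WT, 2 and 1 in kar4Δ, and 2 and 2 in ste12Δ. TIR3 fell by 1.78 in WT, 2.61 in kar4Δ and 0.64 in ste12Δ. Its response differed from WT in both deletion strains, by -0.83 (adjusted p 0.0168) and 1.14 (adjusted p 0.000117). In ste12Δ the TIR4 response also differed, by 0.83 (edgeR, adjusted p 0.00327). Of all features 18.9% were called for this difference in kar4Δ and 35.9% in ste12Δ. In kar4Δ the responses of TIR2 and DAN4 differed from WT the other way from TIR3, by 0.92 and 0.37 (edgeR, adjusted p 0.00242 and 0.015). With library totals alone, 1 gene of this list was called higher and 1 lower for that difference. At 0 h TIR2, TIR3, TIR4 and DAN4 were called lower in kar4Δ than in WT, as were 6.12% of features. The values were -0.53, -0.62, -0.50 and -0.47 (edgeR, adjusted p 0.0144, 0.00651, 0.0355 and 0.000822). Library totals alone also called 4 of the list lower at 0 h. After alpha-factor TIR3 alone of the list was called against WT (-1.45), with 0.38 for TIR2 and -0.10 for DAN4. What part the 0 h levels had in these differences was not tested. Of 12 sterol genes, 3 rose and 6 fell in WT, 3 and 7 in kar4Δ, and 3 and 4 in ste12Δ. The sterol importer gene AUS1 rose by 1.63 in kar4Δ, 2.02 more than in WT (adjusted p 1.12e-11). ARE1, a sterol acyltransferase gene, fell by 0.92 in WT and 1.15 in kar4Δ, and HES1, an oxysterol-binding protein homologue, rose by 1.25 in WT. Of 4 other anaerobic genes, the iron transporter gene FET4 fell most, by 2.74, 2.85 and 1.18, and the ste12Δ difference was 1.55 (adjusted p 0.00026). Over that list 1 rose and 1 fell in WT, 2 and 1 in kar4Δ, and 0 and 3 in ste12Δ. With library totals alone the counts higher and lower in WT were 0 and 3 for the mannoproteins, 2 and 9 for sterol genes and 0 and 2 for the last list, and in kar4Δ 1 and 2, 1 and 7, and 0 and 1. Without WT replicate 1 at 0 h the WT counts were 1 and 3 for the mannoproteins and 0 and 2 for the last list. In WT of batch 4, FRD1, OSM1 and EUG1 of the last list were called higher (0.44, 0.19 and 0.44), where 28.9% of features were. In WT of batch 3 they were too (0.58, 0.50 and 0.23), where 27.4% were. Library totals alone called 2 of the list higher and 1 lower in each. FET4 fell by 1.74 in batch 4 and by 2.01 in batch 3. Its batch 4 response differed from that of batches 1 and 2 by 0.99 (edgeR, adjusted p 0.0361).

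The share of all features called higher was 17.6% in ste12Δ, 29% in WT and 33% in kar4Δ. Of 10 genes that heme or oxygen activates, which include the counterparts CYC1, COX5A and PET9, 4 rose and 1 fell in WT, 5 and 2 in kar4Δ, and 9 and 1 in ste12Δ. CYT1, cytochrome c1, rose by 0.94, 0.79 and 0.98, and CYB2, a lactate dehydrogenase that uses cytochrome c, by 0.80, 0.76 and 1.33. YHB1, the flavohemoglobin gene, went the other way and fell by 1.83, 2.26 and 0.37. With library totals alone the counts were 3 higher and 2 lower in WT and in kar4Δ, and 9 and 1 in ste12Δ. Without WT replicate 1 at 0 h they were 6 and 2 in WT, with a list median of 0.42. The ste12Δ response then differed from that of WT for 3 of the 10, all higher. Of all features 17.3% were called higher and 16.5% lower for that difference. With every library and library totals alone it was called for 5, all higher, where 27.8% of features were higher and 10.8% lower. Unless batch 3 or 4 is named, all these counts are of batches 1 and 2. With library totals alone, 2 of these 10 genes rose and 5 fell in WT of batch 3, and likewise in batch 4 with its time-matched control. The list medians there were -0.14 and -0.17, and those over all features -0.15 and -0.13. In these fits 18.3% and 22.1% of features were called higher and 35.9% and 37.8% lower. The list medians in WT of batches 1 and 2 were 0.29 for the heme-activated genes, -0.38 for heme synthesis, -0.24 for sterol genes and -0.13 for the regulators. With library totals alone the WT medians were 0.11, -0.55, -0.42 and -0.30. The ste12Δ medians were 0.46, -0.07, -0.03 and -0.03 with TMM, and 0.43, -0.09, -0.05 and -0.06 without it.

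**Figure D5:**
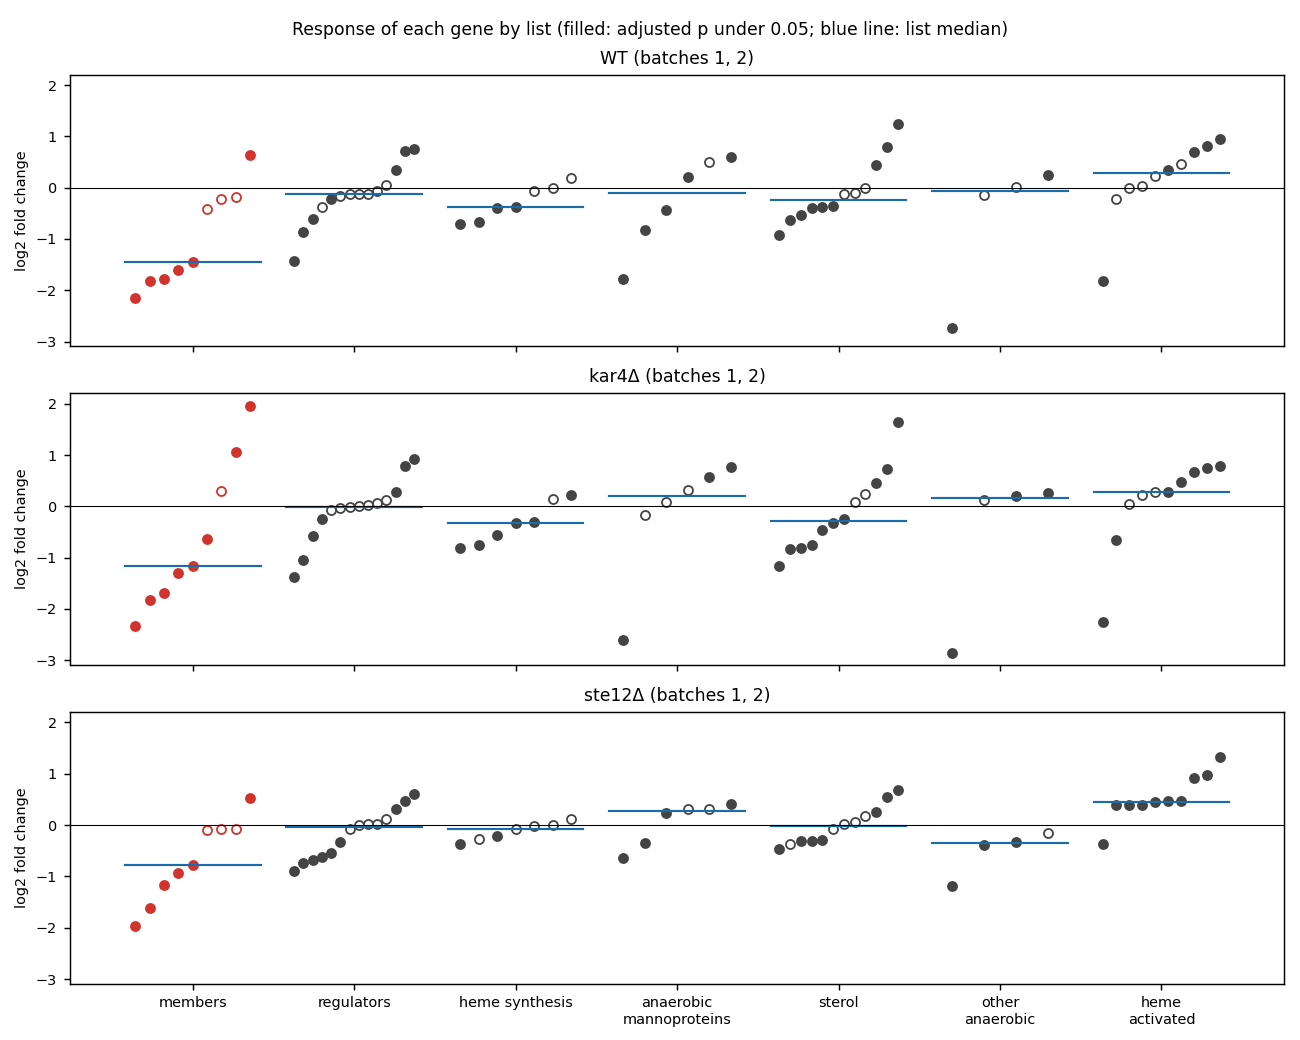
Log2 fold change of alpha-factor against 0 h for every tested gene of each list in WT, kar4Δ and ste12Δ of batches 1 and 2, with filled points where the adjusted p was under 0.05 and a line at each list's median. The 9 members (red) had medians of -1.44 (WT), -1.17 (kar4Δ) and -0.78 (ste12Δ), and the heme-activated genes 0.29, 0.28 and 0.46 (0.11, 0.05 and 0.43 with library totals alone). Without WT replicate 1 at 0 h these 2 medians were -1.72 and 0.42 in WT.

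How the members varied together was described over the 24 libraries of batches 1 and 2, after the mean of each batch was taken off, as Pearson's r of log2 CPM. These libraries share 3 strains and 2 conditions, so r mostly sets strain and treatment means side by side. HEM13 and OLE1 had r = 0.95, and AAC3 and ANB1 had r = 0.88. ROX1 had r = -0.58 with HEM13 and r = -0.60 with OLE1. Of 6161 features, those most like HEM13 were GPD2 and TNA1 (r = 0.98 and 0.97), and those most like OLE1 were RPL9A and FRS1 (both r = 0.99). CYC7 was most like NET1 (0.95) and RSF2 (0.94), and ROX1 most like XBP1 (0.92) and PTR3 (0.91). ANB1 was most like MUB1 (0.86) and LAC1 (0.85), and DAN1 most like YOL037C and PAU20 (both r = 0.86). AAC3 was most like CAT5 and BRE1 (both r = 0.84), TIR1 most like YAR060C (0.78) and IGD1 (0.73), and COX5B most like RPB3 and TPT1 (both r = 0.77).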

How the data were processed

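Per the labels' protocols, total RNA was depleted of ribosomal RNA, made into libraries that keep strand and sequenced as 50-nt reads. The authors deposited 1 table of estimated counts per feature, made from the aligned reads and not scaled, of which 24.5% are whole numbers. STAR, featureCounts and sacCer3 are named in the submitters' processing notes. Versions, annotation, use of strand and the treatment of reads with several places are not given in the sources used here. Of 7127 identifiers 6047 matched RefSeq (R64).

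The 44 columns became 36 libraries. Within each group of batch 3, column 1 and column 3, and likewise 2 and 4, differed by less than the sampling noise (chi-square per degree of freedom 0.444 to 0.701 in 8 pairs, 5.29 to 177 in 54 other pairs of one group), and each pair was averaged and counted as 1 library. Counts were rounded and tested with edgeR 4.0.16 (R 4.3.3, limma 3.58.1). The steps were filterByExpr (minimum count 10, minimum total 15), TMM, glmQLFit and glmQLFTest, and Benjamini-Hochberg adjustment over all features tested. On simulated counts, changes of 1 on the log2 scale were recovered in 97% of cases for the kar4Δ response. The share was 63% for WT of batch 3, 69% for batch 4 and 43% for batch 4 minus batches 1 and 2. The simulation gave all features the same spread and had no batch effect, so it does not measure recovery in these libraries. Batches 1 and 2 (24 libraries, batch as a term), batch 3 (8) and batch 4 (4) were fitted separately, and all 36 with a batch 2 term for differences between batches. Depth was 4248572 to 15631338 counts per library in batch 1, 8265661 to 12669750 in batch 2, 9897916 to 17018424 in batch 3 and 14823217 to 22586646 in batch 4. It sets the precision, and counts of 10 or fewer, as for AAC3 and DAN1, allow only wide errors. Alternatives were library totals, DESeq2 1.42.0, no filter, open reading frames alone, subsets of groups or batches, replicate blocks and each library left out.

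The members and lists were chosen with earlier results of these data known. The text names the 9 members, their counterparts, the deleted genes, up to 3 called genes of each list with the largest change in a response, and the 2 features most like each member. HEM1, the cyclin genes, BAR1 and the alpha-cell markers were named after their values were seen. Sequences were read from the R64 genome (RefSeq).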

Additional observations from a re-analysis of the deposited data

Results flagged for a closer look

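The CYC7 response to alpha-factor differed between ste12Δ and WT by 1.75 on the log2 scale (edgeR, adjusted p 4.11e-05). In WT 3 of 4 libraries at 0 h lay above all 4 treated ones, and CYC7 stood at 21.6 to 31.3 CPM in all 8 ste12Δ libraries. The OLE1 response differed between the same strains by 0.84 (edgeR, adjusted p 0.0205), with the smaller fall in ste12Δ. For HEM13 the WT response of batch 4 differed from that of batches 1 and 2 by 1.59 (edgeR, adjusted p 0.00099), and for OLE1 it differed by 1.28 (edgeR, adjusted p 0.0049). For HEM13 the WT response of batch 3 differed from that of batches 1 and 2 by 1.37 (edgeR, adjusted p 0.0248), in a comparison added after its values were seen. What lies behind these differences was not tested, and batch and control time cannot be told apart. Among 54 groups of 4 libraries, 1 for each gene and group of batches 1 and 2, 0 had a library farther from the rest than Dixon's 95% critical value allows.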

How the results depend on the processing

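Of 1060 recomputed values over 63 fold changes of members, 992 kept their direction and their side of the threshold, 54 lost a call, 8 gained one and 6 changed sign. The sign changes were TIR1 in WT of batch 1 alone (0.063), CYC7 in ste12Δ of batch 2 alone (0.11) and without ste12Δ replicate 1 at 0 h (0.014, over a range of -0.20 to 0.014 with each library left out), and the CYC7 difference of batch 4 from batches 1 and 2 without WT replicate 1 at 0 h (0.10), without WT replicate 4 after alpha-factor (0.0016) and without treated replicate 1 of batch 4 (0.17, over a range of -0.49 to 0.17). Counts of called members moved by over 1.5 times as follows, and the cause was not tested. For the kar4Δ response difference (0 called), each batch alone gave 1, and leaving out a library gave 0 to 1. For the ste12Δ difference (2), no batch term and batch 1 alone gave 1. For kar4Δ against WT at 0 h (1), library totals, no batch term and batch 1 alone gave 0, batch 2 alone gave 2, and leaving out a library gave 0 to 2. After alpha-factor (2, DAN1 included), the groups of the comparison alone and batch 2 alone gave 1, and leaving out a library 1 to 2. For ste12Δ against WT at 0 h (2), library totals gave 4, open reading frames alone, no batch term and the replicate block gave 1, batch 2 alone gave 0, and leaving out a library 1 to 2. After alpha-factor (3), library totals gave 5. WT of batch 3 (5) gave 3 to 6 when a library was left out. For ime4Δ (0 in each), every column as a replicate gave 1 for the response difference and 2 in either condition, and after alpha-factor the groups of the comparison alone gave 2. For batch 3 minus batches 1 and 2 (1), DESeq2 gave 3, the groups of the comparison alone 2, and leaving out a library 0 to 3. For batch 4 minus batch 3 (0), DESeq2 gave 1.

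Deviations from the batch and group means of same-numbered libraries correlated at -0.153 to 0.413 between conditions of a strain (over 0.1 in 4 of 6 distinct values), at 0.0457 to 0.367 between strains at 0 h (5 of 6) and at -0.256 to 0.227 after alpha-factor (4 of 6). Not every value was over 0.1, so the numbers were not taken to pair samples. A block by replicate number ended the ROX1 call in ste12Δ against WT at 0 h (0.39, adjusted p 0.0618) and changed no other count of called members, and a block within strain changed none. With library totals alone the median over all features was -0.23 in kar4Δ, -0.15 in WT and -0.29 in ime4Δ of batch 3, -0.13 in batch 4, and for ste12Δ against WT 0.21 at 0 h, 0.36 after alpha-factor and 0.16 for the response difference. Depth limits DAN1 and AAC3 most, whose libraries often held 10 counts or fewer.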
